A study of Mus musculus with 12 samples.

Results

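The genes described here are the heat shock proteins and DnaJ proteins of the mouse, taken as every row of the deposited expression table whose symbol begins with Hsp or with Dnaja, Dnajb or Dnajc, leaving out the cytosolic HSP90 genes Hsp90aa1 and Hsp90ab1. The rule found 66 genes among the 15322 in the table. It used symbols only, but was chosen with earlier results of these data known. By where their proteins work, 39 are cytosolic or nuclear, called cytosolic from here on, 14 belong to the endoplasmic reticulum and 8 to mitochondria. Counted among the 39 are Hspbp1, Hspbap1 and Hspb11, which were not assigned to a chaperone family here. A further 4, Dnajc4, Dnajc22, Dnajc27 and Dnajc28, were given no compartment. The last, Hspg2, matches by its symbol alone: it encodes perlecan, a heparan sulfate proteoglycan of basement membranes and not a chaperone.

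RNA was sequenced from lumbar dorsal root ganglia, which lie beside the spinal cord and hold the cell bodies of sensory neurons with their glia, taken from wild-type (WT) mouse pups at postnatal day 9. In the stress group, dam and pups had been kept with limited bedding from postnatal day 2 to 9, a protocol of chronic early life stress. Controls were WT pups of the same age kept with control bedding over the same days. Each treatment had 3 female and 3 male libraries, so 6 limited bedding libraries were set against 6 control libraries. The labels do not say whether a library pooled animals or which pups shared a dam, so the p-values speak of the spread among these libraries, part of which may be technical.

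Chaperones hold and refold other proteins. HSP70 proteins bind unfolded stretches in cycles of ATP use, J proteins (DnaJ A, B and C) bring them clients and start ATP hydrolysis, and nucleotide exchange factors such as the HSP110 proteins release the client. Small heat shock proteins keep damaged proteins from clumping, HSP60 and HSP10 form a folding chamber in mitochondria, and HSP90 proteins finish the folding of signalling proteins and receptors. Heat shock factor 1 raises the transcription of many cytosolic and some mitochondrial chaperones when proteins misfold in the cytosol. The unfolded protein response raises those of the endoplasmic reticulum. Sensory neurons, which supply very long axons with protein, carry high levels of several of them.

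Values are normalized counts, the authors' counts scaled per library, and fold changes are log2 differences of value + 1, limited bedding over control, averaged over the sexes and given with their standard errors. A gene counts as called where limma gave it an adjusted p under 0.05 (Benjamini-Hochberg, over all genes tested). Depth is not given. A rough estimate from the spacing of low values, which was blurred in every library, came to 16500000 to 27000000 reads in 11 libraries. It left out limited bedding female 2, where only 28.9% of low values lay near a whole step, against 61.6% to 86.6% in the others. This share also split by treatment, with 28.9% to 66.3% in limited bedding libraries and 72.8% to 86.6% in controls. The part of that split in the bedding effects was not tested. The 10 neuron markers examined were present in every library, the lowest value being 1881 normalized counts, for Isl1. Several marker lists moved with the treatment. The summed levels of 10 neuron markers were 308132 to 335256 normalized counts in limited bedding libraries, against 364150 to 385097 in controls, with 3 markers called higher and 3 called lower. For 8 satellite glia markers the sums were 47006 to 53224 with limited bedding, against 65166 to 73356 in controls (0 higher, 6 lower). Fibroblast markers (0 higher, 5 lower of 6) summed to 69059 to 102349 with limited bedding, against 111662 to 119143 in controls. Red blood cell markers (7 higher, 0 lower of 9) summed to 4162 to 12773 with limited bedding, against 2375 to 4805 in controls. Dividing cell markers (5 higher, 0 lower of 6) summed to 2171 to 3140 with limited bedding, against 1818 to 2150 in controls. Myelinating Schwann cell (7 markers), skeletal muscle (8) and macrophage (6) lists had 0 calls each, and 1 of 6 endothelial markers was lower. No marker in the table was at 0 in every library, Ahsp and Myog had no row, and the part of these shifts in the chaperone results was not tested.

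A total of 66 of 66 genes passed the filter on low values. Of these, 12 (18.2%) differed between limited bedding and control, against 26.2% of all genes tested. The share was below that background. Only 3 of the 66 (4.55%) were higher, Hspa5, Hspa13 and Hspa2, against 12.8% of all genes. The 9 lower ones (13.6%) were Hsph1, Hspa4l, Dnaja4, Hspb6, Hspb1, Dnajc6, Dnajc1, Hspe1 and Dnajc27, against 13.4% of all genes. Without limited bedding female 2 the counts were 5 higher and 12 lower, and without limited bedding male 3 they were 5 higher and 7 lower. The share of all genes called in those fits was not computed, so these counts have no background beside them. The median log2 fold change was -0.01 over the 66 genes, beside 0.01 over all genes tested, whose middle range ran from -0.13 to 0.14 between the quartiles. In 6 of the 66 (9.09%) the 6 limited bedding and 6 control libraries did not overlap, against 10.9% of all genes tested. They were 3 higher genes (4.55%, against 5.21%) and 3 lower ones (4.55%, against 5.73%). The authors' deposited table called 14 of the 66 (21.2%), against 26.9% of the genes tested here. The 14 were the 12 above with Hspb7 (higher) and Hspa4 (lower). In bulk tissue, a lower level from fewer cells of a type and one from less RNA per cell cannot be told apart.

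**Figure D1:**
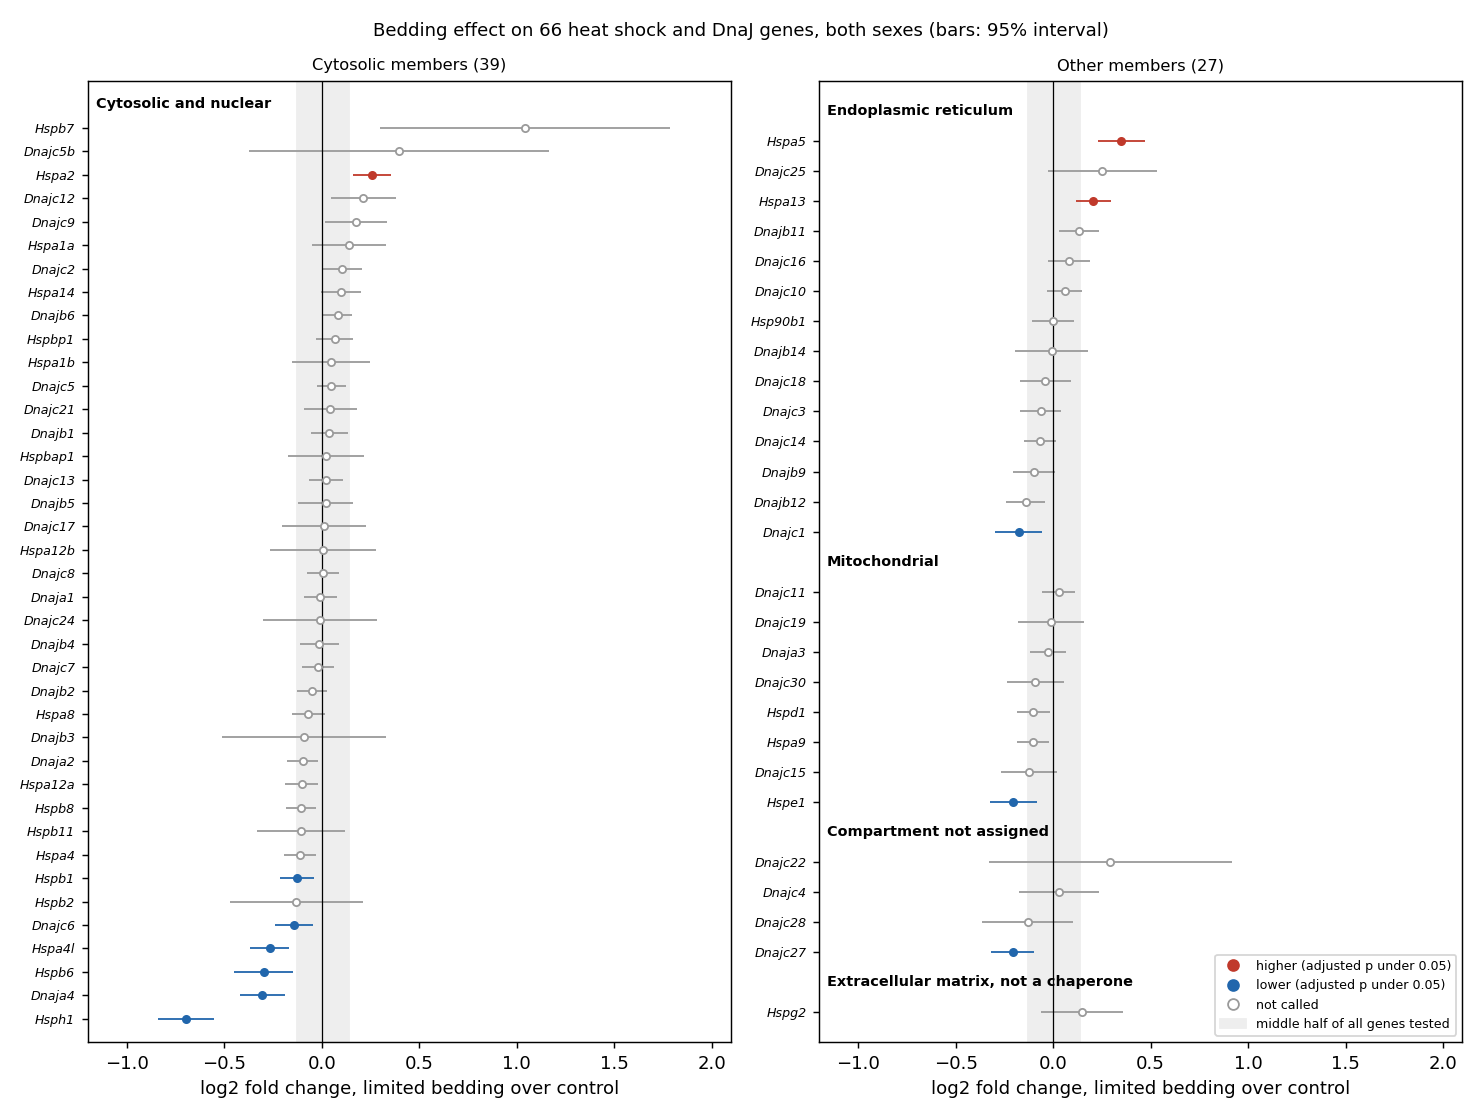
Log2 fold change of limited bedding over control (x axis) for the 66 genes, grouped by compartment, with 95% intervals as bars and called genes coloured. The shaded band is the range between the quartiles of all genes tested, -0.13 to 0.14; Hsph1 at -0.70 lies farthest below it, and Hspb7, at 1.04 with a wide interval, farthest above.

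Cytosolic chaperones. Of 39 genes, 1 was higher (2.56%, against 12.8% of all genes tested) and 6 were lower (15.4%, against 13.4%), with a median of 0.01. The HSP110 family held the 2 lower genes with the lowest adjusted p of the compartment, Hsph1 and Hspa4l. The textbook heat-inducible genes Hspa1a, Hspa1b and Dnajb1 did not pass the test, nor did Hspa8, the constitutive HSP70.

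Hsph1 (chr5:149614287-149636376, minus strand) encodes HSP105, an HSP110 protein that exchanges nucleotide on HSP70 and is itself heat-inducible. It ran from 1707 through a median of 1945 to 2595 normalized counts in limited bedding libraries, against 3077, 3234 and 3400 in controls (lowest, median and highest). The groups did not overlap, and every limited bedding library lay well below the lowest control. The means were 2014 ± 327 with limited bedding and 3238 ± 157 in controls (SD, n = 6 each), 38.4% lower by the fitted log2 fold change of -0.70 ± 0.07 (limma, adjusted p = 5.88e-06). It was called in each sex, with -0.62 in females (adjusted p = 0.00133) and -0.77 in males (adjusted p = 0.000149, limma).

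The 250 bases before an annotated start of Hsph1, chr5:149636337-149636586 (minus strand) of GRCm38.p6 in the RefSeq promoter table, are shown because Hsph1 had the lowest adjusted p of the 66 genes. Capitals mark TTCNNGAA, a pair of inverted heat shock element units, beginning 33 bases before that start. The marked bases lie inside the gene span given above, as GENCODE starts the gene farther upstream, at 149636376. The full element of 3 units was not found in Hsph1. The search for TTCNNGAA was added later, and found it in 11.1% of the 54 members with a window, against 8.11% of all genes.
Hsph1: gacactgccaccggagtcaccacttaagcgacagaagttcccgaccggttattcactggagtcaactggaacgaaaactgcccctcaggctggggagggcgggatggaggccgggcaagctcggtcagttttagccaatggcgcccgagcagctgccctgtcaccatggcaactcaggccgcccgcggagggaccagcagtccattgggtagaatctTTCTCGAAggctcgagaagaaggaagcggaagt

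Hspa4l, a second HSP110 gene (chr3:40744495-40796103, plus strand), ran from 2031 through 2254 to 2562 with limited bedding, against 2584, 2731 and 2903 in controls. Its highest limited bedding library fell just short of the lowest control, so the groups did not overlap but nearly met. Its log2 fold change was -0.27 ± 0.05 (limma, adjusted p = 0.00116). Hspa4, the third member, averaged 6320 ± 381 with limited bedding and 6816 ± 230 in controls (SD, n = 6 each), with a log2 fold change of -0.11 ± 0.04 that did not pass here (limma, adjusted p = 0.0636). The authors' deposited table gives it an adjusted p of 0.0486, and it was also among the genes called without limited bedding female 2.

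Of 7 cytosolic HSP70 genes, 1 was called. Hspa2 (chr12:76404176-76406938, plus strand), an HSP70 best known from the testis, where mouse sperm formation needs it, had 809, 876 and 983 normalized counts in limited bedding libraries, against 707, 750 and 779 in controls (lowest, median and highest). All limited bedding libraries were above all controls, by a log2 fold change of 0.26 ± 0.05 (limma, adjusted p = 0.0012).

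Hspa8 encodes HSC70, the constitutive cytosolic HSP70, and had by far the highest level per length of the 66 genes, 16708 normalized counts per kilobase of exon with limited bedding and 17496 in controls. The next, Hspa12a, a distant HSP70 relative, had 2601 with limited bedding and 2792 in controls on the same scale. Hspa8 had 66438, 72377 and 76516 normalized counts (lowest, median, highest) with limited bedding, against 72312, 75471 and 77738 in controls. These ranges overlapped, and the log2 fold change of -0.07 ± 0.04 did not pass (limma, adjusted p = 0.264). Other loci share 43.5% of its 31-base stretches (38.6% with Gm15459), so its count is uncertain as well. Far below Hspa8 on this scale, though not the lowest of the 66, Hspa1a and Hspa1b, the heat-inducible HSP70 genes, stood at 70.4 and 71.5 normalized counts per kilobase with limited bedding and 64.1 and 69.6 in controls.

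Hspa1a had 170, 214 and 234 normalized counts (lowest, median, highest) with limited bedding, against 164, 180 and 241 in controls. Its log2 fold change of 0.14 ± 0.10 (limma, adjusted p = 0.319) had an interval of -0.05 to 0.33. Hspa1b had 182, 198 and 223 with limited bedding, against 160, 191 and 234 in controls, with 0.05 ± 0.10 (limma, adjusted p = 0.77) and an interval of -0.15 to 0.25. Both pairs of ranges overlapped widely. The 2 genes share 63.8% and 67.6% of their 31-base stretches with each other, so the split of reads between them is uncertain. Their sum was 409 ± 21.7 with limited bedding and 385 ± 34.6 in controls (SD, n = 6 each).

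Dnajb1, the HSP40 whose protein partners HSP70 in the heat shock response, had 1144, 1209 and 1289 with limited bedding, against 1107, 1179 and 1270 in controls. Its log2 fold change was 0.04 ± 0.05 (limma, adjusted p = 0.587), with an interval of -0.05 to 0.13. Among the 9 cytosolic DnaJ A and B genes 1 was called. Dnaja4 (chr9:54698873-54716315, plus strand), a type A J protein, had 748, 824 and 918 with limited bedding, against 935, 1037 and 1079 in controls. The groups did not overlap, and the log2 fold change was -0.31 ± 0.06 (limma, adjusted p = 0.00123). Exons of Wdr61 on the opposite strand cover 44.1% of its exon bases, and the strand setting of the counting is not given in the sources used here, so its level is uncertain. Wdr61 itself had a log2 fold change of -0.12 ± 0.07 (limma, adjusted p = 0.229). The other 8 genes of the group lay between -0.10 (Dnaja2, adjusted p = 0.0926 in limma) and 0.08 (Dnajb6, adjusted p = 0.128). Dnaja1 had the highest normalized counts of the 9, 10764 ± 858 with limited bedding and 10811 ± 366 in controls (SD, n = 6 each).

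Of 12 cytosolic DnaJ C genes 1 was lower. Dnajc6 encodes auxilin, which with HSC70 strips clathrin coats from vesicles in neurons, and had 3986, 4277 and 4762 with limited bedding, against 4465, 4735 and 5229 in controls. In 5 of 6 limited bedding libraries it lay below every control. The difference was small, a log2 fold change of -0.15 ± 0.05 (limma, adjusted p = 0.0410), and it was not called when any 1 of 9 libraries was left out (adjusted p up to 0.106 in limma), holding without limited bedding male 3, control male 1 or control male 2. Dnajc5, the cysteine string protein of synaptic vesicles, had 0.05 ± 0.04 (limma, adjusted p = 0.372), and Dnajc13, an endosome protein, 0.02 ± 0.04 (adjusted p = 0.778). The 3 cytosolic genes assigned to no chaperone family, Hspbp1, Hspbap1 and Hspb11, were not called.

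Among 5 small heat shock genes, Hspb6 and Hspb1 were lower. Hspb6, encoding HSP20, had 172, 219 and 289 normalized counts with limited bedding, against 258, 265 and 301 in controls. In 4 of 6 limited bedding libraries, 3 of them female, it was below every control. Over both sexes it was -0.30 ± 0.08 on the log2 scale (limma, adjusted p = 0.00986), with -0.49 in females (adjusted p = 0.00882) and -0.11 in males (adjusted p = 0.565). The difference of the sexes, 0.39 ± 0.16, did not pass (limma, adjusted p = 0.569).

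Hspb1, encoding HSP27 (HSP25 in mouse), which sensory neurons express and which aids their survival after nerve injury in rodents, had 1604, 1758 and 1783 with limited bedding, against 1698, 1904 and 1981 in controls. The ranges overlapped and the log2 fold change was -0.13 ± 0.04 (limma, adjusted p = 0.0463). When any 1 of 10 libraries was left out it was not called (adjusted p up to 0.117 in limma), and it held without limited bedding female 2 or control female 3. A pseudogene copy, Hsp25-ps1, shares 52.3% of its 31-base stretches, so its count is uncertain. Hspb8, a partner of BAG3, had 4586 ± 329 with limited bedding and 4927 ± 169 in controls (SD, n = 6 each), or -0.11 ± 0.04 on the log2 scale (limma, adjusted p = 0.0606).

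Hspb7, a small heat shock gene of heart and skeletal muscle, had the largest fold change of the 66 at low level, 40.0 ± 29.9 normalized counts with limited bedding and 17.3 ± 6.19 in controls (SD, n = 6 each). Limited bedding male 1 alone had 99.1. Its log2 fold change of 1.04 ± 0.38 did not pass here (limma, adjusted p = 0.0532). In the authors' deposited table it is 1.21, with an adjusted p of 0.00817. It was called here too without limited bedding female 2, male 2 or male 3, or without control female 1. Skeletal muscle markers summed to 511 to 4784 with limited bedding, against 247 to 2341 in controls, and their part in Hspb7 was not tested.

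**Figure D2:**
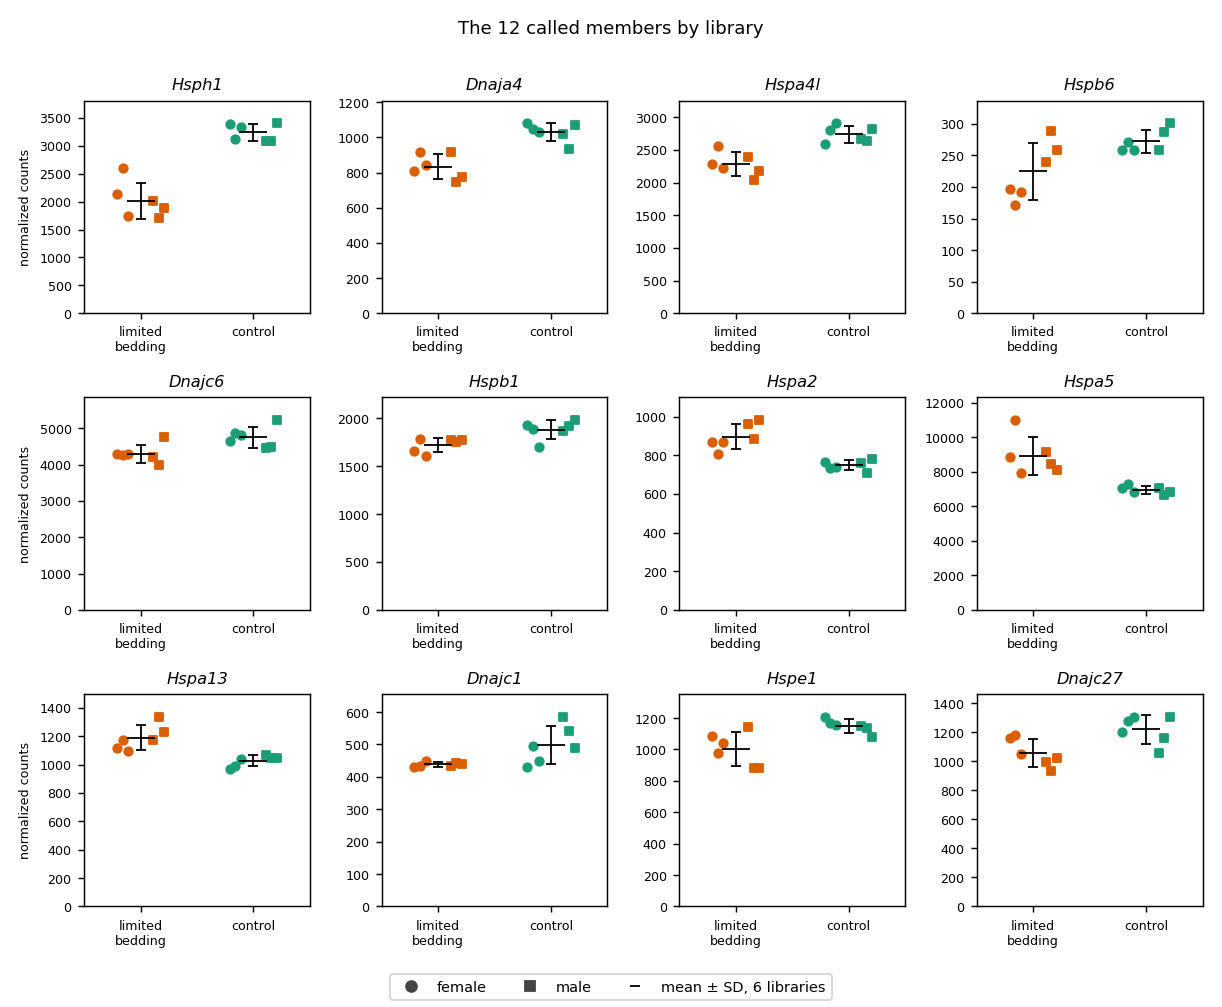
Normalized counts (y axis, from 0) of the 12 called genes in each library, limited bedding left of control, with circles for females, squares for males and the mean ± SD of 6 libraries. The groups are apart in Hsph1, Hspa4l, Dnaja4, Hspa2, Hspa5 and Hspa13 and overlap in the other 6 genes.

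Chaperones of the endoplasmic reticulum. Of 14 genes 2 were higher (14.3%, against 12.8% of all genes tested) and 1 was lower (7.14%, against 13.4%), with a median of -0.0043. The higher ones were HSP70 proteins of the lumen, Hspa5 and Hspa13. Hsp90b1, Dnajb9 and Dnajc3, which like Hspa5 are textbook targets of the unfolded protein response, did not pass the test.

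Hspa5 (chr2:34771970-34777547, plus strand) encodes BiP, which folds newly made secretory and membrane proteins and holds the sensors of the unfolded protein response inactive. It had 7920, 8648 and 10989 normalized counts with limited bedding, against 6657, 6943 and 7284 in controls. Every limited bedding library was above every control. The means were 8909 ± 1116 with limited bedding and 6951 ± 228 in controls (SD, n = 6 each), 27.4% higher by the fitted log2 fold change of 0.35 ± 0.06 (limma, adjusted p = 0.000619). It was called in females (0.38, adjusted p = 0.0107) and in males (0.32, adjusted p = 0.0219). The call in males was lost without limited bedding male 1 (adjusted p = 0.0757), control male 2 (0.0825) or control male 3 (0.055, all limma), and both with 1 prior variance (0.0575 in females and 0.0804 in males). Limited bedding female 2 was the highest, and without that library the log2 fold change was 0.28, with an adjusted p of 0.000239 in limma.

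Hspa13 (chr16:75745431-75767104, minus strand), a membrane-bound HSP70 of the reticulum, had 1098, 1173 and 1338 with limited bedding, against 970, 1044 and 1070 in controls. The groups did not overlap, with a log2 fold change of 0.21 ± 0.05 (limma, adjusted p = 0.00374).

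Hsp90b1, encoding GRP94, the HSP90 of the lumen, had 7259, 7655 and 9902 with limited bedding, against 7759, 7915 and 8240 in controls. Limited bedding female 2 was the sole library far above the others. The log2 fold change was -0.00062 ± 0.05 (limma, adjusted p = 0.995), with an interval of -0.11 to 0.11. Without female 2 it was -0.06 (adjusted p = 0.275).

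Of 11 J proteins of the reticulum 1 was called. Dnajc1, a J protein of its membrane, had 431, 437 and 449 with limited bedding, against 429, 493 and 586 in controls. All 6 limited bedding values lay inside the control range and close together. The log2 fold change was -0.18 ± 0.06 (limma, adjusted p = 0.0445). Leaving out any 1 of 10 libraries ended the call (adjusted p up to 0.119 in limma), which held without control female 1 or control male 3.

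Dnajb9, encoding ERdj4, which delivers BiP to its sensor IRE1, had 680, 734 and 895 with limited bedding, against 757, 809 and 843 in controls, and was not called (-0.10 ± 0.05, limma adjusted p = 0.213). Dnajc3, encoding a J protein also known as an inhibitor of the kinase PERK, had 1340, 1458 and 1804 with limited bedding, against 1466, 1581 and 1619 in controls. Its log2 fold change was -0.06 ± 0.05 (limma, adjusted p = 0.419). Dnajb11, encoding the BiP cofactor ERdj3, averaged 1307 ± 103 with limited bedding and 1191 ± 56.9 in controls, a log2 fold change of 0.13 ± 0.05 that did not pass (limma, adjusted p = 0.0747).

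A promoter sequence was shared by 3 genes of this compartment. The endoplasmic reticulum stress element, CCAAT and CCACG with 9 bases of any kind between them, was searched on both strands in the 250 bases before each RefSeq start. It was found in Hspa5, Hsp90b1 and Dnajc3, that is in 5.56% of the 54 members with a promoter in the table. The same letters stood in 0.13% of all 27025 genes there. Of the 3, Hspa5 was called higher, and Hsp90b1 and Dnajc3 were not called. The windows, shown because they pair this shared element with unlike bedding effects, are chr2:34771840-34772089 (plus strand), chr10:86705445-86705694 (minus strand) and chr14:118937682-118937931 (plus strand) of GRCm38.p6, from RefSeq. Capitals mark the element, which Hsp90b1 holds once in each direction.
Hspa5: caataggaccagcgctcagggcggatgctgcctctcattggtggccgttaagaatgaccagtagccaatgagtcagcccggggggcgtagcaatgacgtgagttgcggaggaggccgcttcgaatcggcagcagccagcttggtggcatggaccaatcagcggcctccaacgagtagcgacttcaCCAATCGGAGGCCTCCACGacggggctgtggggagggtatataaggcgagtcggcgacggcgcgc
Hsp90b1: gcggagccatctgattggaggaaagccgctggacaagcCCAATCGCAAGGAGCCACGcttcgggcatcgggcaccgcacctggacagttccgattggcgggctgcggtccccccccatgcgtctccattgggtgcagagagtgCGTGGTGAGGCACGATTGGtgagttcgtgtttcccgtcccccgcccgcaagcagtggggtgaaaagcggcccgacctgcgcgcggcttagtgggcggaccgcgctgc
Dnajc3: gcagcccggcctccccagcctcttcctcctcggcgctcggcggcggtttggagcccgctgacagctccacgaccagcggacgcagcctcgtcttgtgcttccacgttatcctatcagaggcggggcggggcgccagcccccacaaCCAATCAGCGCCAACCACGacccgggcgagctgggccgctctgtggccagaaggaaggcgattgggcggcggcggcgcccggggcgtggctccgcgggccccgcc

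The matches begin at -65 in Hspa5, at -212 and -107 in Hsp90b1 and at -105 in Dnajc3, counted from the RefSeq start. GENCODE starts Hspa5 farther upstream, at 34771970, so the match of Hspa5 lies inside the gene span given above. A match describes letters, not a bound site.

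Mitochondrial chaperones. Of 8 genes 0 were higher (0.00%, against 12.8% of all genes tested) and 1, Hspe1, was lower (12.5%, against 13.4%). Their median was -0.10, beside 0.01 for all genes tested, and 7 of the 8 had a log2 fold change under 0. Hspe1 (chr1:55088132-55091307, plus strand), encoding HSP10, the lid of the HSP60 chamber, had 881, 1009 and 1143 with limited bedding, against 1081, 1151 and 1209 in controls. In 4 of 6 limited bedding libraries it was below every control. On the log2 scale it was -0.20 ± 0.06 (limma, adjusted p = 0.0221). The call was lost without limited bedding male 3 (adjusted p = 0.0562) or control female 1 (adjusted p = 0.0528). Copies elsewhere share 24.8% of its 31-base stretches.

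Hspd1 encodes HSP60 and lies on the strand opposite to Hspe1, their starts in GENCODE 111 bases apart and their first exons overlapping. It had 5501, 5824 and 6528 with limited bedding, against 6066, 6332 and 6526 in controls. The log2 fold change was -0.10 ± 0.04 (limma, adjusted p = 0.0951), and 50.1% of its 31-base stretches are shared with other loci. Hspa9, encoding mortalin, the HSP70 that pulls proteins through the inner membrane, had 5811, 6016 and 6873 with limited bedding, against 6349, 6674 and 6803 in controls, also -0.10 ± 0.04 (limma, adjusted p = 0.0865). In both genes limited bedding female 2 was the highest of the 12 libraries. Without it both were called, Hspa9 at -0.13 (adjusted p = 0.0198) and Hspd1 at -0.13 (adjusted p = 0.0302, limma).

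Among the 5 mitochondrial J proteins none was called, with log2 fold changes from -0.12 to 0.03. At an unadjusted p under 0.05 there were also 0 of these 5, as the 3 of 8 in the compartment were Hspe1, Hspa9 and Hspd1. Of all genes tested, 5668 of 15194 passed the same unadjusted cutoff. Dnaja3, encoding a J partner of mortalin, had 1346, 1418 and 1596 with limited bedding, against 1383, 1465 and 1526 in controls (-0.03 ± 0.05, limma adjusted p = 0.739).

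The window before the start of Hspe1, chr1:55087898-55088147 (plus strand) of GRCm38.p6 from RefSeq, is shown because it lies before the RefSeq start of the gene called in this compartment and holds the heat shock element in full. The element searched was GAA, TTC and GAA with 2 bases of any kind between each, on both strands, and was found in Dnajb6, Hspd1 and Hspe1, or 5.56% of the 54 members with a window and 0.514% of all genes. The matches of Hspd1 and Hspe1 are the same bases, read from opposite strands and counted for both genes. Capitals mark overlapping matches in both directions.
Hspe1: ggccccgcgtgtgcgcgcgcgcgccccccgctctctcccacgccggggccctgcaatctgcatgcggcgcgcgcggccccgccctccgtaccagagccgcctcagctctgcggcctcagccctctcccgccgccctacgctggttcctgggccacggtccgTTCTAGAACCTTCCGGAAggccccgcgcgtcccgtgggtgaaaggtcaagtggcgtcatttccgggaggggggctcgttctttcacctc

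A search for 2 units was added after these windows had been read, and overlaps the longer element. GAANNTTC was found in 10 of the 54 members (18.5%), against 7.73% of all genes, and TTCNNGAA in 6 (11.1%), against 8.11%. The 10 were Dnaja1, Dnaja4, Dnajb6, Dnajc27, Hspa1a, Hspa1b, Hspb1, Hspb6, Hspd1 and Hspe1. Among them 0 were called higher and 5 lower with limited bedding, beside 2 higher and 4 lower of the 44 members with a window and no match. For TTCNNGAA it was 0 higher and 2 lower of 6, beside 2 higher and 7 lower of 48, and for the element of 3 units 0 higher and 1 lower of 3, beside 2 higher and 8 lower of 51. Over all genes tested, 12.8% were higher and 13.4% lower. In each search the same bases were counted for both Hspd1 and Hspe1. With the search chosen after the calls were known, these counts were given no test.

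Of the 4 genes with no compartment, Dnajc27 was lower. It encodes a Rab-like GTPase with a J domain, and had 929, 1035 and 1181 with limited bedding, against 1059, 1238 and 1306 in controls. In 4 of 6 limited bedding libraries it lay below every control. It differed by -0.21 ± 0.06 on the log2 scale (limma, adjusted p = 0.0122). Dnajc28, Dnajc22 and Dnajc4 were not called. Hspg2 had 9210 ± 1818 with limited bedding and 8173 ± 468 in controls, and was not called (0.15 ± 0.11, limma adjusted p = 0.334), except without limited bedding female 2.

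**Figure D3:**
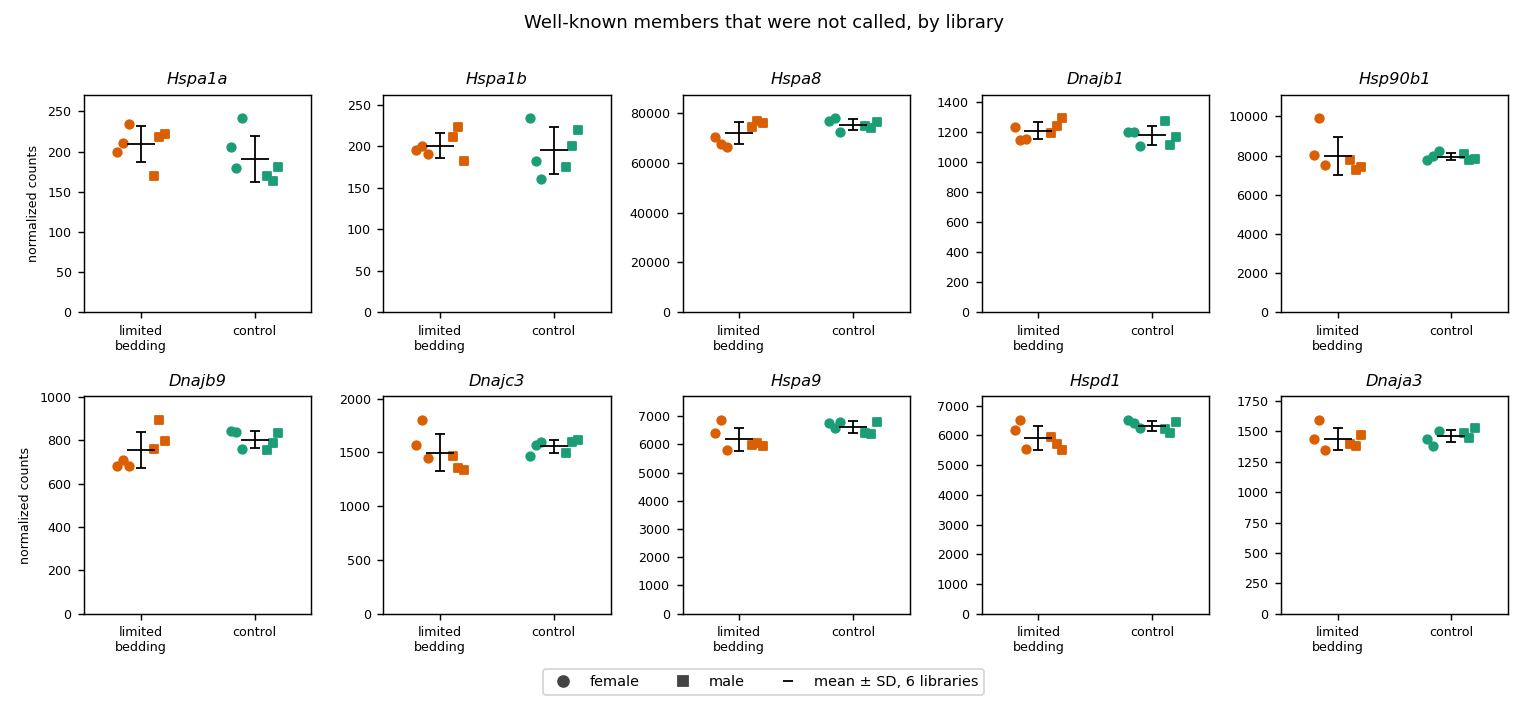
Normalized counts (y axis, from 0) per library of chaperones often used as readouts of protein folding stress that were not called, limited bedding left of control, with the mean ± SD of 6 libraries. The ranges overlap in each panel, and in Hsp90b1 limited bedding female 2, at 9902, stands above the rest.

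Sexes. In females 4 of the 66 genes (6.06%) were called, against 11.0% of all genes tested, 1 higher and 3 lower. The higher gene was Hspa5, against 4.96% of all genes, and the lower ones were Hsph1, Dnaja4 and Hspb6, against 6.07%. In males 9 (13.6%) were called, against 15.8% of all genes, 4 higher (6.06%, against 7.71%) and 5 lower (7.58%, against 8.11%). They were Hspa5, Hspa13, Hspa2 and Dnajc12, and the lower Hsph1, Hspa4l, Dnaja4, Dnajc1 and Dnajc27. These counts moved with single libraries: without limited bedding female 2, 2 were higher and 5 lower in females, without control male 2 or control male 3, 1 was higher and 3 were lower in males, and without limited bedding male 2, 2 were higher and 2 lower in males. The share of all genes called with those libraries left out was not computed. No gene was called for a difference between the sexes in its bedding effect (limma, 0.00% of all genes). At an unadjusted p under 0.05 there were 4 of the 66, and 1260 of the 15194 genes tested. The counts in each sex therefore do not show that the sexes differed.

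Among the 66, Dnajb9 had the lowest p for such a difference. It had 680, 710 and 681 in limited bedding females, against 843, 839 and 758 in control females, where every limited bedding value was lower. In males it had 759, 895 and 798 with limited bedding, against 757, 787 and 832 in controls, and the ranges overlapped. The effect was -0.24 in females and 0.04 in males, a difference of 0.28 ± 0.11 (adjusted p = 0.564 in limma).

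Dnajc12, a J protein that assists the hydroxylases of aromatic amino acids, was called in 1 sex and not over both. It had 288, 357 and 264 in limited bedding males, against 223, 225 and 244 in control males (0.38, limma adjusted p = 0.0411). In females it had 236, 254 and 259 with limited bedding, against 254, 256 and 219 in controls (0.04, adjusted p = 0.855). Over both sexes it was 0.21 ± 0.09 (adjusted p = 0.0761), and it was called without limited bedding male 3 (adjusted p = 0.0394, limma). The call in males was lost when limited bedding male 1 or 2, control female 1 or 2, or any control male was left out, with an adjusted p up to 0.186 in limma and a log2 fold change of 0.26 without limited bedding male 2. It was also lost with 1 prior variance (adjusted p = 0.0522, limma). The difference of Dnajc12 between the sexes, 0.34 ± 0.17, did not pass (limma, adjusted p = 0.612). The calls of Dnaja4 within a sex were lost without any of 5 libraries in females (adjusted p up to 0.122) and any of 4 in males (adjusted p up to 0.0776, limma). That of Hspa13 in males was lost without limited bedding male 2 (adjusted p = 0.0913), control male 2 (0.0707) or control male 3 (0.0591, all limma). Leaving out single libraries also ended the male calls of Dnajc27 (adjusted p up to 0.165) and Dnajc1 (up to 0.134, limma).

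**Figure D4:**
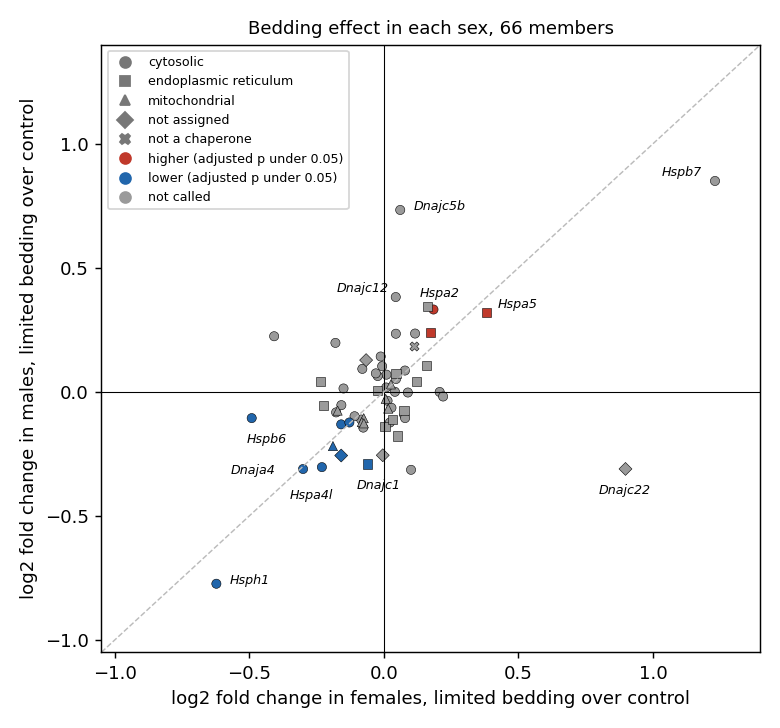
Log2 fold change of limited bedding over control in females (x axis) and in males (y axis) for the 66 genes, with symbols for compartments and colours for calls over both sexes. Hsph1 is low in both sexes (-0.62 in females, -0.77 in males) and Hspa5 high in both (0.38 in females, 0.32 in males).

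Partners of the chaperones. Family members filed under other symbols moved in both directions, with 1 higher and 2 lower of 7 and a median of -0.05, beside 12.8% higher and 13.4% lower of all genes tested. Trap1, the mitochondrial HSP90, averaged 1569 ± 102 normalized counts with limited bedding and 1816 ± 40.3 in controls, a log2 fold change of -0.21 ± 0.05 (limma, adjusted p = 0.0029). Cryab, the small heat shock protein alpha-B crystallin, averaged 2807 ± 371 with limited bedding and 3615 ± 550 in controls (-0.36 ± 0.10, adjusted p = 0.0114). Hyou1, the HSP110-like exchange factor of the endoplasmic reticulum, was higher, 2507 ± 88.3 with limited bedding and 2300 ± 60.1 in controls (0.12 ± 0.04, limma adjusted p = 0.0273).

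Of 31 cytosolic folding partners and heat shock factors 5 were higher and 7 lower, with a median of -0.00078, beside the same 12.8% and 13.4% of all genes. The 4 of lowest adjusted p were all lower. Bag2, a cochaperone that exchanges nucleotide on HSP70, averaged 323 ± 29.1 with limited bedding and 482 ± 34.9 in controls, and its groups did not overlap (-0.57 ± 0.06, limma adjusted p = 9.1e-06). Bag3, a partner of small heat shock proteins in selective autophagy, averaged 4012 ± 389 with limited bedding and 5213 ± 278 in controls (-0.38 ± 0.05, adjusted p = 2.86e-05, limma). Stip1, which links HSP70 to HSP90, fell to 3624 ± 237 with limited bedding, against 4697 ± 248 in controls (-0.38 ± 0.05, limma adjusted p = 5.47e-05). Ahsa1, an activator of HSP90, averaged 1964 ± 161 with limited bedding and 2359 ± 40.7 in controls (-0.27 ± 0.04, adjusted p = 0.000335, limma). The list also holds Hsf1, named here after its value was seen, at 427 ± 47.5 with limited bedding and 540 ± 23.0 in controls (-0.34 ± 0.07, limma adjusted p = 0.00287). The higher genes were Bag4, Sgta and 3 subunits of the CCT chaperonin, Tcp1, Cct2 and Cct6a.

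Of 24 genes of folding in the endoplasmic reticulum and of the unfolded protein response 9 were higher and 3 lower, with a median of 0.02, where 12.8% of all genes tested were higher and 13.4% lower. Xbp1, the transcription factor of the IRE1 arm, averaged 1598 ± 55.3 with limited bedding and 1333 ± 67.2 in controls (0.26 ± 0.05, limma adjusted p = 0.000556). Manf, a secreted protein of the stressed reticulum, averaged 1392 ± 48.5 with limited bedding and 1199 ± 61.1 in controls (0.22 ± 0.05, adjusted p = 0.00239, limma). Calr, the lectin chaperone calreticulin, averaged 10524 ± 716 with limited bedding and 9161 ± 369 in controls (0.20 ± 0.05, limma adjusted p = 0.00427). The list did not move one way. Atf4, the factor of the PERK arm, was lower, 2715 ± 526 with limited bedding and 3943 ± 155 in controls (-0.56 ± 0.07, limma adjusted p = 5e-05). Atf6 and Ddit3 were the other lower genes, and Creld2, P4hb, Pdia4, Pdia6, Edem1 and Sel1l the other higher ones, names given after their values were seen.

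Of 12 mitochondrial folding and protease partners 1 was higher and 1 lower, with a median of -0.04, beside 12.8% and 13.4% of all genes. Htra2, a protease between the membranes, averaged 573 ± 43.6 with limited bedding and 666 ± 36.3 in controls (-0.22 ± 0.06, limma adjusted p = 0.0140). Spg7, a protease subunit of the inner membrane, averaged 1604 ± 124 with limited bedding and 1421 ± 49.0 in controls (0.17 ± 0.05, adjusted p = 0.0236, limma).

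**Figure D5:**
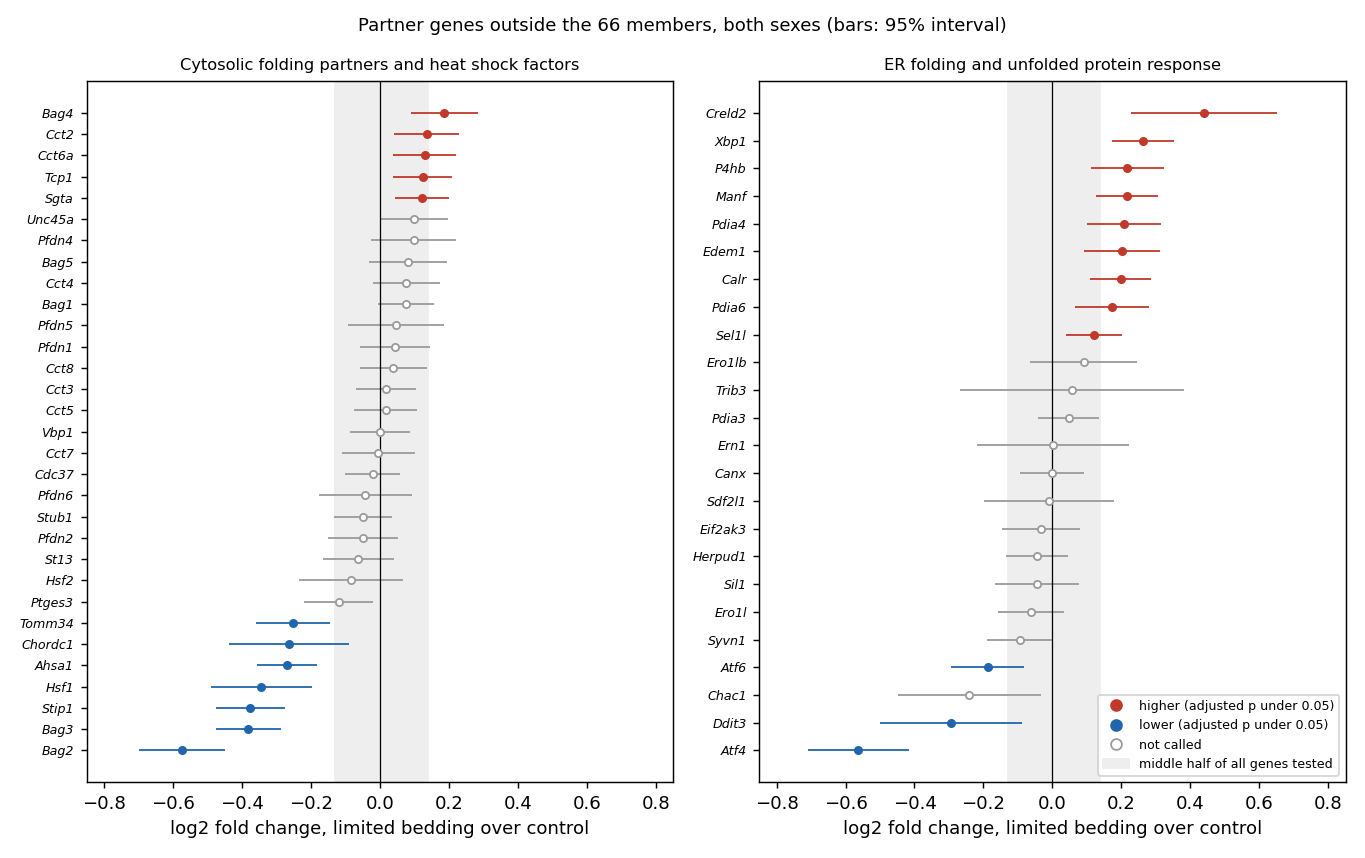
Log2 fold change of limited bedding over control (x axis) for 31 cytosolic folding partners (left) and 24 genes of endoplasmic reticulum folding (right), none among the 66, with 95% intervals as bars, called genes coloured and the range between the quartiles of all genes shaded. Bag2 at -0.57 and Atf4 at -0.56 lie farthest below 0 among the genes named in the text.

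Across libraries, the 66 genes also varied within groups. Limited bedding female 2 was the highest of the 6 limited bedding libraries for 23 of them (34.8%), against 20.9% of all genes tested. After subtraction of the 4 group means on the log2 scale, the Pearson correlation of Hspa5 with Hsp90b1 over the 12 libraries was 0.915, and 0.631 over 11 without limited bedding female 2. That of Hsph1 with Hspa9 was 0.897, and 0.771 without it. These were the highest of the member pairs examined, and others ran down to -0.711, for Hspa13 with Hspe1. Hspa5 and Hspa13, both called higher, correlated at 0.194, and at -0.328 without limited bedding female 2. Points share their library and its scaling, and the values are descriptions. By the same measure the genes most like Hsph1 were Kpna2 (0.979), Hsp90aa1 (0.959) and Ddx5 (0.929), those most like Hspa5 were Aggf1 (0.985), Srsf1 (0.965) and Aamp (0.952), and those most like Hspe1 were Lrrc45 (0.951), Atp5mpl (0.942) and Tceal3 (0.937). These genes were picked as the 3 highest of all genes tested for each, so high values follow from the choice. Without limited bedding female 2 their values ran from 0.831 (Aamp) to 0.957 (Kpna2). Of these 9, 4 were called over both sexes, beside 26.2% of all genes tested. All 4 were lower with limited bedding: Hsp90aa1 (-0.33), Aggf1 (-0.27), Atp5mpl (-0.26) and Tceal3 (-0.52).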

How the data were processed

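Total RNA from 12 libraries (6 limited bedding, 6 control, 3 of each sex in each) was sequenced with a directional kit, per the labels' protocols. The submitters' processing notes list STAR, Salmon, DESeq2 and the build mm10 and no version of any. The annotation, the strand setting and any filter were not given in the sources used here. As deposited, the values are normalized signal per library (counts scaled by library, a mean of them included), and the authors' log2 fold changes with standard errors, a test score and deposited p-values. Low values lay within 0.1 of a step from a whole multiple in 28.9% to 66.3% of cases in limited bedding and 72.8% to 86.6% in control libraries, too few to recover whole reads and use a count model.

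The 15194 genes tested reached 10 normalized counts in 3 libraries or more, and 128 did not. log2(value + 1), which understates changes of low genes, was fitted with limma 3.58.1 in R 4.3.3, with 1 mean for each treatment and sex and a prior variance following mean expression. The both-sex effect is the average of the female and male effects. Calls used a threshold of 0.05 on Benjamini-Hochberg adjusted p, and intervals are 1.96 standard errors either side. The code was tested on simulated data. Alternatives were upper quartile and TMM scaling, pseudocounts of 0.5 and 5, other filters, prior, weights and terms, a replicate block, a threshold of 0.01, each library left out and the authors' own comparison.

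Named were the called genes, 14 textbook chaperones, genes called in 1 sex, the gene of lowest p between the sexes and up to 4 called genes of lowest adjusted p in each partner list, beside those said to be named later. Members and lists were chosen with earlier results of these data known. Gene positions, overlaps and shared 31-base stretches come from GENCODE M21 on GRCm38, and promoters from RefSeq on GRCm38.p6. No protein sequence was used here.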

Additional observations from a re-analysis of the deposited data

Results flagged for a closer look

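Hsp90b1 in limited bedding female 2 had 9902 normalized counts, against 7259 to 8015 in the other 5 limited bedding libraries and 7759 to 8240 in controls. The gap to its neighbour, as a share of the range of the 6 limited bedding libraries, exceeded Dixon's 95% critical value. Of 46 groups examined, 1 did so, and chance gives about 5% of groups. Low values of that library also lay least near whole multiples of a step, 28.9%, and the part of this in its value was not tested.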

How the results depend on the processing

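Hsph1 (-0.77 to -0.63), Hspa5 (0.28 to 0.40), Hspa2 (0.24 to 0.28), Hspa13 (0.18 to 0.23), Hspa4l (-0.30 to -0.24), Dnaja4 (-0.35 to -0.28) and Hspb6 (-0.34 to -0.27) were called in all 24 alternatives over both sexes, ranges being without each library in turn. Dnajc27 was lost at a threshold of 0.01 alone, where 4 genes were lower over both sexes, 0 higher in females, and 1 higher and 2 lower in males. Hspe1, Dnajc6, Hspb1 and Dnajc1 were lost in several. With 1 prior variance 0 genes were higher in females and 2 in males, and with array weights 4 were higher and 7 lower in females. With upper quartile scaling Hsp90b1 was 0.0106, and 0.00476 in the authors' deposited table. Leaving out each library in turn gave 3 to 5 higher and 6 to 12 lower genes over both sexes, 1 to 2 higher and 2 to 5 lower in females, 1 to 4 higher and 2 to 5 lower in males, and 0 differing between the sexes. Without limited bedding female 2, 5 were higher and 12 lower, and without limited bedding male 3, 5 were higher and 7 lower. The share of all genes called with a library left out was not computed, so these counts have no background. Nor was it computed at the threshold of 0.01, with 1 prior variance, with array weights or with the replicate block. Over the libraries left out, Hsp90b1 ran from -0.0593 to 0.0405, Dnaja3 from -0.0586 to 0.0028 and Hspa1b from -0.0121 to 0.12. Within each sex, residuals of same-numbered limited bedding and control libraries correlated at -0.015 to 0.148, and those of other-numbered ones at -0.191 to 0.128. With 3 libraries in each group, this cannot tell whether replicate numbers pair samples. The replicate block gave 5 higher and 9 lower genes, with Dnajc12 no longer called in males (adjusted p = 0.055, limma). The cause of these changes was not tested. Of 552 fold changes recomputed over both sexes, 496 kept their side of the threshold and direction. They cover the textbook members and those called, so genes that stayed uncalled count as kept. For members called within a sex it was 79 of 88 in females and 159 of 198 in males. Depth is unknown in limited bedding female 2, and genes near 20 normalized counts, such as Hspb7, were measured with wide error.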

Other observations

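Of 12 genes of the immediate early and handling response 1 was higher and 1 lower, beside 12.8% higher and 13.4% lower of all genes tested. Dusp1, a phosphatase of MAP kinases, was higher, 366 ± 45.5 normalized counts with limited bedding and 294 ± 15.6 in controls (SD, n = 6 each). Its log2 fold change was 0.31 ± 0.07 (limma, adjusted p = 0.00367). Ier3 was lower, 248 ± 14.2 with limited bedding and 325 ± 26.8 in controls (-0.39 ± 0.07, limma adjusted p = 0.000985). The other 10 were not called, and the summed list ran from 4607 to 4962 with limited bedding, against 4468 to 4997 in controls.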
